A study of Drosophila melanogaster with 2 samples.

Results

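The DNA bound by CG10147, a zinc finger protein of Drosophila melanogaster with a ZAD at its start, was examined at 9 genes that encode proteins of the same family: CG10147 itself, CG1792, CG18476, CG4820, M1BP, Pita (spelled pita in the annotation), ZIPIC, wek and grau. They were chosen by symbol, with the peak signals of these lists already known, out of 13945 protein-coding genes on 6 chromosome arms. Peaks were taken from 2 kb before to 2 kb after each gene. Binding was measured by ChIP-seq with an antibody against GFP in whole embryos of both sexes, 0 to 24 hours old, from a stable line whose transgene joins GFP to the carboxyl end of CG10147. The series held 1 group with 2 biological replicates, numbered 2 and 3, both from this line, and no second condition. The labels do not name the sequence that drives the transgene, and reads from any CG10147 flanking sequence it carries cannot be told apart from those of the native locus. Per the deposited file lists a control entered the peak calling; it was not analysed here.

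The zinc finger associated domain (ZAD) holds a zinc ion through paired cysteines and lets these proteins pair with themselves, while the C2H2 fingers that follow bind DNA. The family has many members in insects. M1BP binds the core promoter element called motif 1, pita and ZIPIC are architectural proteins that recruit Cp190, wek is an adaptor in Toll signalling, and grau activates transcription needed in female meiosis. CG10147, CG1792, CG18476 and CG4820 are known mainly by their annotation numbers.

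All 9 proteins fitted the family label. Each had 2 pairs of cysteines near its start, the first cysteine between residue 3 in ZIPIC and residue 18 in pita, followed by 3 C2H2 finger matches in CG4820 and up to 15 in CG18476. CG10147 had 448 residues and 9 finger matches. Over the start of the protein, 68 to 75 aligned residues, the other members were 25% (grau) to 28.4% (M1BP) identical to CG10147. No unrelated proteins were aligned beside them, so these values alone do not show relatedness.

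The 9 chosen genes differed in their peaks. CG10147, CG1792, CG18476, CG4820 and M1BP each had 1 strong peak with its summit 92 bp (CG4820) to 309 bp (M1BP) upstream of the start site (TSS). The gene pita had weak peaks at both of its start sites, and ZIPIC, wek and grau had no peak anywhere in the window. The TSS is the first transcribed base, and a promoter here is the sequence within 500 bp of any TSS. The upstream sequences of the 5 strongly bound genes are shown because the summits lie in them. Each runs 5′ to 3′ on the strand of the named gene, from the upstream neighbour toward the TSS, and lies between annotated genes in the RefSeq copy of the Release 6 assembly, whose coordinates are those of dm6. The first 4 end 1 base before the TSS, and the M1BP sequence, which starts beside CG8202, stops short of it. They are the gaps between CG10147 and Bulli (chr3L:6488425-6488680, minus strand), CG1792 and Mnat9 (chr3R:31616161-31616302, plus strand), CG18476 and Taf12 (chr3R:11678117-11678385, minus strand), CG4820 and RpS25 (chr3R:11216288-11216534, plus strand) and, as 300 bases of a gap of 392, M1BP and CG8202 (chr3R:8731791-8732090, minus strand). Counted from the first printed base, the pooled summit is base 75 for CG10147, 17 for CG1792, 125 for CG18476, 156 for CG4820 and 84 for M1BP. Capitals mark matches, on either strand, to 8 short motifs: the motif 1 core GGTCACAC, the Dref site TATCGATA, the E-box form CAGCTG, the GAGA factor letters GAGAG, the short BEAF-type letters CGATA (which lie inside the Dref site), the TATA box letters TATAAA, the run AAAATAT, and letters of the ZIPIC site, written AGGGCTG.
CG10147: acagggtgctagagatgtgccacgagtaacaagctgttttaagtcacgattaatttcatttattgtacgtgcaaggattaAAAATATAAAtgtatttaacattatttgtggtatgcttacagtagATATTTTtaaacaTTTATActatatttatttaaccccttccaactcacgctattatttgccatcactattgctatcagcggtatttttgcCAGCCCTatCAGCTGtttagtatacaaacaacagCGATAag
CG1792: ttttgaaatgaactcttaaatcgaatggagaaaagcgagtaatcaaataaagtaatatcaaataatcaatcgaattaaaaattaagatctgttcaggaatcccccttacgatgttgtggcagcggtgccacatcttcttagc
CG18476: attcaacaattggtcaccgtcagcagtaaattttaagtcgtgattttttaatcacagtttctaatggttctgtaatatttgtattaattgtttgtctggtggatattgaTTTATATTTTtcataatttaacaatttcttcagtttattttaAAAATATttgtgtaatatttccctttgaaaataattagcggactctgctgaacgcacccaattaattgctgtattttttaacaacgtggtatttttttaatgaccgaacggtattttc
CG4820: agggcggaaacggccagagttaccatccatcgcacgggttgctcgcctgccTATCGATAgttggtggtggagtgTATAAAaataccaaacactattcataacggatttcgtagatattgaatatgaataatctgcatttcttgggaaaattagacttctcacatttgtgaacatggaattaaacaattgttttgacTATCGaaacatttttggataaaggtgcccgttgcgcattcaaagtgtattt
M1BP: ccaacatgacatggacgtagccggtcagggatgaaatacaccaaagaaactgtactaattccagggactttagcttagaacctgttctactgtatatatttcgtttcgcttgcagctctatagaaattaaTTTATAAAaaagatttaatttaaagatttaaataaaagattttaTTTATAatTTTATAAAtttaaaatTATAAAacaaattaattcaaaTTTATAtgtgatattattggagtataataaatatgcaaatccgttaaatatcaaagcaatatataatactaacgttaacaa

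The GC content of the 5 sequences was 24.7% in the M1BP stretch, 27.9% at CG18476, 33.2% at CG10147, 34.5% at CG1792 and 39.3% at CG4820, against a median of 33.5% (quartiles 29.5% and 39%) over 200 bp windows at all IDR summits. The stretch at M1BP held an unbroken run of 37 A or T bases, against 10 at CG4820, 13 at CG1792, 15 at CG10147 and 18 at CG18476. TATAAA or its reverse was found 7 times in the M1BP stretch, with overlaps. The CG1792 gap held none of the 8 motifs. The CG4820 gap held the Dref letters TATCGATA at bases 52 to 59, on the side of RpS25 and away from the summit at base 156.

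CG10147 (FBgn0035702, chr3L:6486167-6488424, minus strand), the gene of the tagged protein, had the strongest peak among the 9. The peak spanned 364 bp (chr3L:6488399-6488762) with a signal of 1540 in the pooled libraries, in the units of the authors' peak caller, and ranked 44 of 4576 in the list thresholded by reproducibility (IDR). In the replicates' own lists of 30000 peaks it ranked 64 with a signal of 639.4 (replicate 2) and 51 with a signal of 928.6 (replicate 3). Signals from different lists are on different scales, so ranks are compared here. The summits of the 2 replicates were 4 bp apart.

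CG1792 (FBgn0039860, chr3R:31616303-31617837, plus strand) and CG18476 (FBgn0037931, chr3R:11674920-11678116, minus strand) followed. CG1792 had a peak of 295 bp (chr3R:31616025-31616319) with a pooled signal of 956.0, ranked 162; it ranked 139 in replicate 2 (signal 430.1) and 223 in replicate 3 (signal 533.3). CG18476 had a peak of 306 bp (chr3R:11678112-11678417) with a pooled signal of 828.8, ranked 222; it ranked 276 in replicate 2 (signal 300.6) and 195 in replicate 3 (signal 564.9). The 2 genes changed places between the replicates. Replicate summits were 9 bp apart at CG1792 and 15 bp apart at CG18476.

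CG4820 (FBgn0037876, chr3R:11216535-11217898, plus strand) and M1BP (FBgn0037621, chr3R:8729790-8731698, minus strand) had nearly equal peaks. The CG4820 peak (chr3R:11216180-11216550) had a pooled signal of 559.5 and ranked 490, with ranks of 791 in replicate 2 (signal 173.7) and 436 in replicate 3 (signal 379.9). The M1BP peak (chr3R:8731718-8732124) had a pooled signal of 540.0 and ranked 518, with ranks of 779 in replicate 2 (signal 174.7) and 412 in replicate 3 (signal 389.2). Their order reversed in both replicates, where M1BP ranked above CG4820, so the 2 cannot be ordered. Both ranked higher in replicate 3 than in replicate 2. Replicate summits were 61 bp apart at CG4820 and 50 bp at M1BP, against a median of 30 bp (quartiles 11 and 57) over 2141 promoter peaks of the IDR list matched within 100 bp in both replicates.

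**Figure D1:**
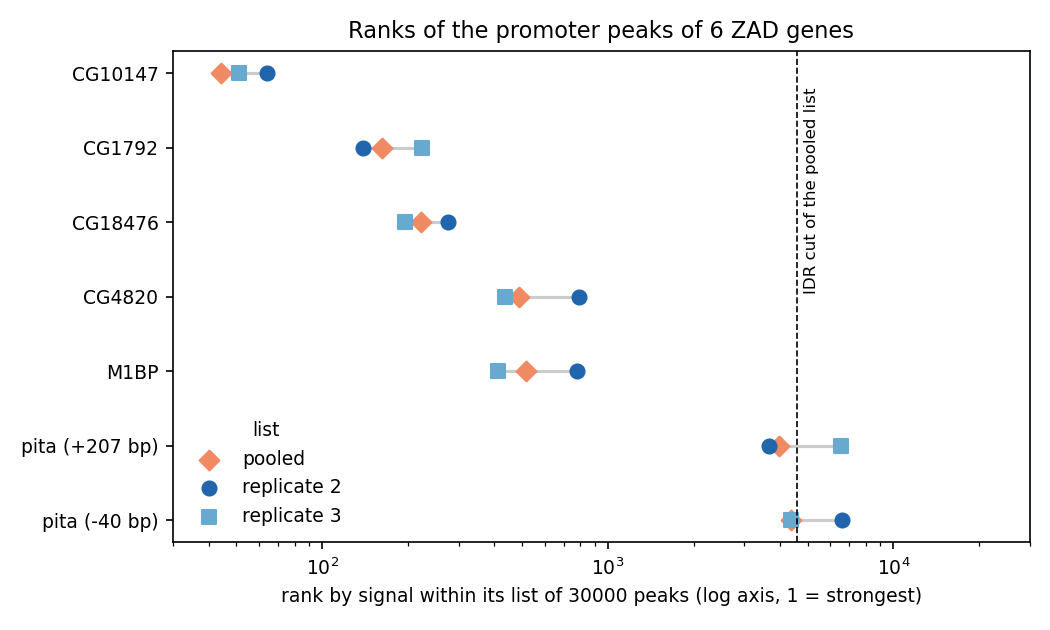
Rank by signal (log axis, 1 is the strongest) of the 7 promoter peaks of 6 genes in the pooled list and in each replicate's list of 30000 peaks; the dashed line is the IDR cut at rank 4576. CG10147 lies left of all others in each list, and the replicates of pita fall on both sides of the cut.

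The peaks at pita were the weakest of the members' promoter peaks. The gene (FBgn0034878, chr2R:23548967-23554712, minus strand) has 2 start sites. The peak at its upstream TSS (chr2R:23554560-23554943) had its summit 40 bp before that TSS, a signal of 148.7 and rank 4377, close to the lowest IDR signal of 144.6. It ranked 6614 in replicate 2 (signal 53.23), with the summit 37 bp after the TSS, and 4382 in replicate 3 (signal 92.39). The peak at its inner TSS (chr2R:23551152-23551535) had its summit 207 bp after that TSS, a signal of 158.6 and rank 3987, with ranks of 3667 in replicate 2 (signal 75.87) and 6557 in replicate 3 (signal 70.81). The summit at the inner site lay in exons of both pita and Dcp-1, which encodes an effector caspase, and was only 31 bp from the Dcp-1 TSS. The 2 peaks at pita therefore changed order between the replicates, and each fell below rank 4576 in 1 of them.

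ZIPIC (FBgn0039740, chr3R:30035240-30036870), wek (FBgn0001990, chr2L:15766133-15768349) and grau (FBgn0001133, chr2R:21009764-21011921), all on the minus strand, had no summit of any of the 4 lists in the gene or within 2 kb of it. The nearest IDR summit to the ZIPIC TSS was 6467 bp upstream, 4 bp from the TSS of Sry-delta, another ZAD gene (signal 296.2, rank 1518). For wek it was 5648 bp away at the promoter of Gli, which encodes a septate junction protein (signal 182.9, rank 3250), and for grau 6504 bp upstream near RIC-3 (signal 363.7, rank 1098). The pooled list holds 30000 peaks and ends at a signal of 31.92, so weaker binding could not have been seen.

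**Figure D2:**
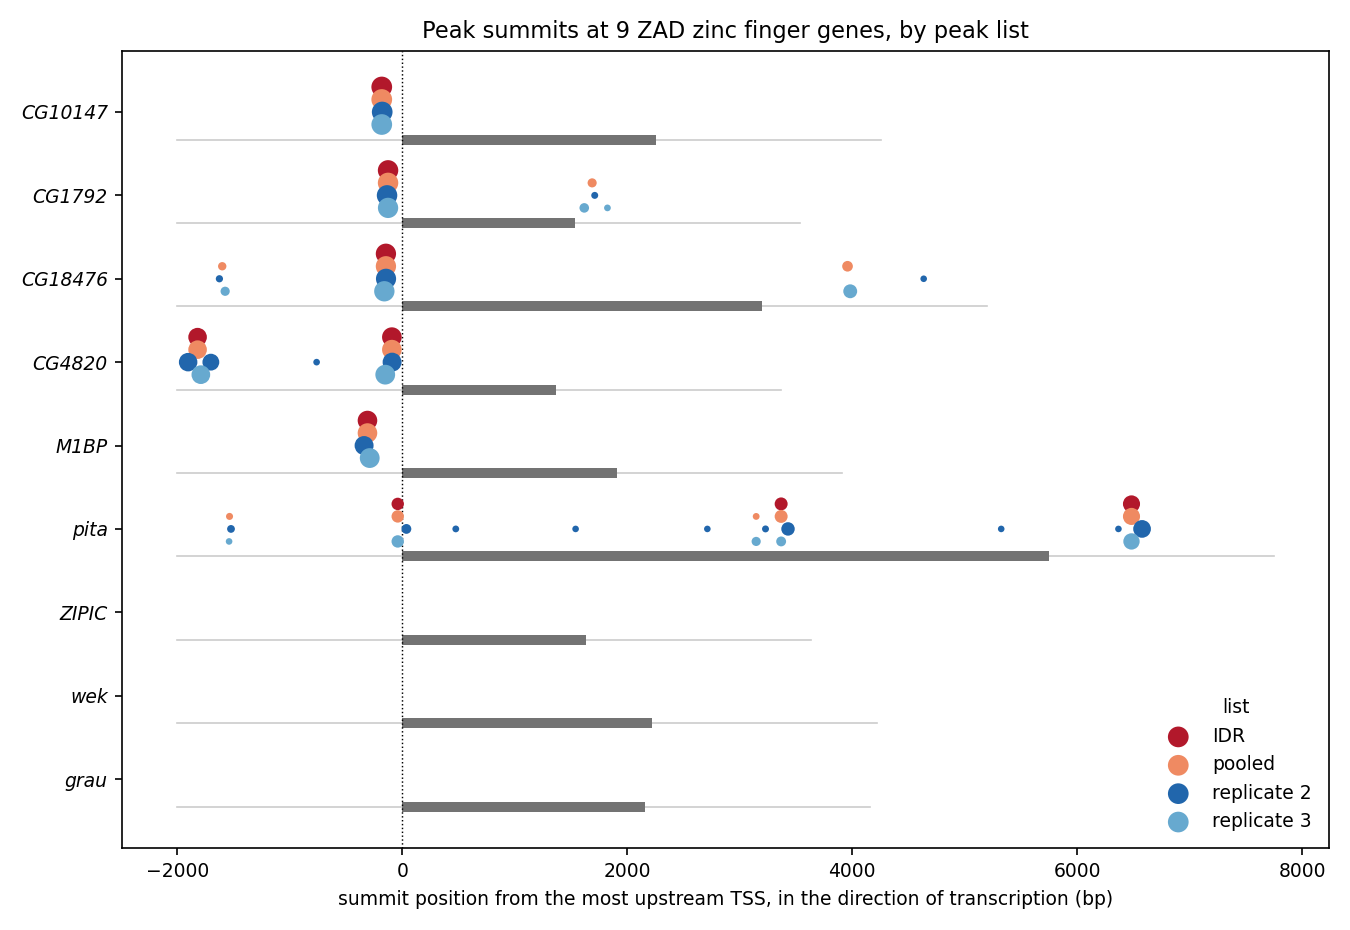
Summits of the 4 peak lists from 2 kb before to 2 kb after each of the 9 genes, placed by distance in bp from the most upstream TSS in the direction of transcription; grey bars are the genes, thin lines the windows, and larger dots are higher ranks by signal. Dots of all 4 lists stack upstream of the first 5 genes, lie at 3 places with IDR peaks in and near pita, and are missing at ZIPIC, wek and grau.

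Because the 9 genes were picked with these values in view, their share is a description and was not tested. An IDR summit lay at the promoter of 6 of 9 members, against 20.3% of all protein-coding genes. The same 6 had a promoter summit in the pooled list, against 44.8% of all genes, and in both replicate lists, against 39.3%; the other 3 had none in any list, against 45.2%. An IDR summit lay in the wider window of the same 6, against 34.7% of all genes, and 3 of 9 had no summit of any list there, against 28.8%. The signals of the 5 strong peaks, 540.0 to 1540, were above the upper quartile of 388.7 for all 2424 IDR promoter peaks, and the 2 of pita were below the median of 239.7.

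Most members with a strong peak shared the bound gap with another gene. An opposite-strand TSS of another gene lay within 500 bp upstream of 5 of 9 members, against 29.6% of protein-coding genes, namely CG10147, CG1792, CG4820, M1BP and grau. Of these 5, 4 had an IDR promoter peak, against 36.7% of all such divergent genes. The fifth, grau, had 48 bp between its TSS and that of CG9346, and no peak. CG18476 had no divergent partner, and its upstream neighbour Taf12, which encodes a subunit of the general factor TFIID, ended 269 bp before it on the same strand.

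In 3 of the 4 bound divergent gaps the pooled summit lay nearer to the partner. At CG10147 it was 182 bp upstream of the gene and 75 bp upstream of Bulli, which encodes a subunit of an endosomal Rab activator. At CG1792 it was 126 bp upstream of the gene and 17 bp upstream of Mnat9, named for an N-acetyltransferase. At M1BP it was 309 bp upstream of the gene and 84 bp upstream of CG8202. At CG4820 the order was the other way, 92 bp from the gene and 156 bp from RpS25, a cytoplasmic ribosomal protein gene, but in replicate 3 the summit was 151 bp from CG4820 and 97 bp from RpS25. A peak in such a gap cannot be given to 1 of its 2 genes. Measured to the nearest TSS of any gene, the 5 summits were 75 bp (CG10147), 17 bp (CG1792), 145 bp (CG18476), 92 bp (CG4820) and 84 bp (M1BP) upstream, against a median position of -103 bp (quartiles -195 and -6.75) over all IDR promoter peaks.

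**Figure D3:**
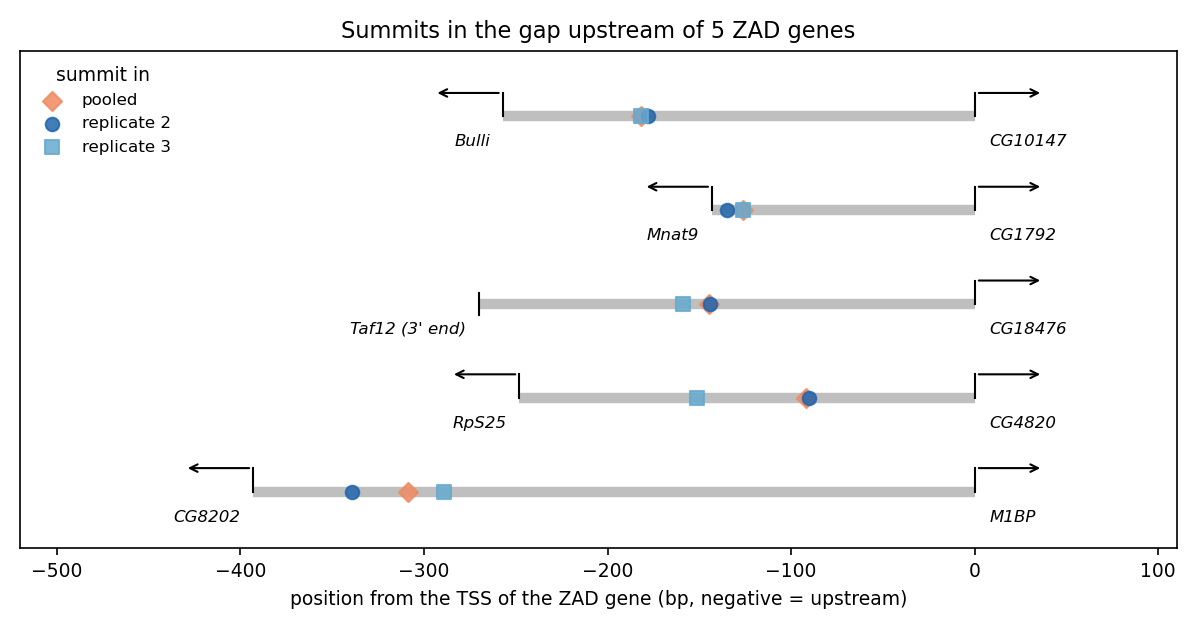
Summit positions in bp upstream of the TSS of 5 ZAD genes in the pooled list and both replicates; grey bars are the gaps between genes and bent arrows the start sites and their direction. The replicate summits lie 4 to 61 bp apart, and the gaps of CG10147, CG1792, CG4820 and M1BP are head to head.

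The other IDR peaks in the windows lay near start sites of other genes. The IDR list held 9 summits in the windows of the 9 genes, 7 of them at promoters of members. The other 2 were 177 bp upstream of ZnT86D, a zinc transporter gene, and 1819 bp upstream of CG4820 (signal 395.7, rank 953), and 9 bp from the TSS of levy, which encodes a cytochrome c oxidase subunit, past the 3′ end of pita (signal 281.6, rank 1641). At ZnT86D replicate 2 had 2 summits (signals 154.9 and 113.2) where replicate 3 had 1 (signal 258.4). The pooled list added weaker peaks at pasha, whose product works with Drosha in microRNA processing, downstream of CG1792 (signal 103.0), at CG14715 (123.6) and at Taf12 and the heme oxygenase gene Ho (92.74) around CG18476, and at Rrp4, an exosome subunit gene, upstream of pita (71.35). A pooled summit 15 bp upstream of the inner pita TSS (65.01) completed the 14 pooled summits. CG10147 and M1BP had 1 summit in each list, while pita had 10 in replicate 2 and 5 in replicate 3. Some of those 10 had signals (16.21, 16.33 and 17.97) close to the lowest in the replicate 2 list, 16.15.

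The summit windows of the members, 200 bp each, were compared with those of all IDR peaks. AAAATAT, a run of letters included because it was already known to be frequent in these peaks, was in 4 of 7 member windows (CG10147, CG1792, CG18476 and the upstream TSS of pita), against 29.5% of IDR windows. TATAAA was in 4 of 7 (CG10147, CG18476, CG4820 and M1BP), against 38.2%. CGATA was in 3 of 7, against 29.3%, CAGCTG in 2 of 7, against 8.24%, and TATCGATA in 1 of 7, against 4.11%. GAGAG, the GAGA factor letters, were in 0 of 7, against 19.7%. GGTCACAC was in 0 of 7, against 2.38%, and AGGGCTG in 0 of 7, against 2.32%. The motifs overlap each other in places, and a match is only a match of letters.

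The GC content upstream of the start sites overlapped between members with and without a peak. In the 200 bp before the most upstream TSS, GC content was 26.0% (M1BP) to 35% (CG1792) in the 6 members with an IDR promoter peak, against 34.0% at ZIPIC, 30% at wek and 44.0% at grau; the median over protein-coding genes was 37.5%. The values of ZIPIC and wek lay inside the range of the members with a peak. TATCGATA was in these windows of CG4820, pita and wek, 3 of 9 against 7.29% of protein-coding genes. AAAATAT was in 5 of 9, against 22.6%, TATAAA in 5 of 9, against 36.9%, and CGATA in 5 of 9, against 38.3%. CAGCTG was in 1 of 9, against 11.5%, AGGGCTG in 1 of 9, against 2.73%, and GAGAG in 0 of 9, against 22.1%. GGTCACAC was in that of grau alone, against 3.70%. The M1BP window held no match to GGTCACAC. With GC content by summit window, the 5 strong peaks ranged from 25.5% at CG18476 to 34.0% at CG1792, against 50.0% and 38.5% at the inner and the upstream pita site, with a median of 33.5% over all IDR peaks.

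The wider family gives the setting of these genes. A protein pattern (paired cysteines within the first 120 residues and at least 3 C2H2 matches) found 93 ZAD-like genes, the 9 members included. Cysteines of fingers that lie near the start of a protein can also fit this pattern, so some of the 93 may lack a ZAD. Of them 27 had an IDR promoter peak (29.0%), and of the 84 outside the members 21 did (25%), against 20.3% of all protein-coding genes. However, 37 of the 84 had a divergent partner as defined above, against 29.6% of all protein-coding genes. Of these 37, 14 had an IDR promoter peak, a share near the 36.7% of all divergent genes. In the pooled list the 84 had 48 (57.1%), against 44.8% of all genes, and 24 of the 84 (28.6%) had no promoter summit in any list, against 45.2% of all genes. No summit of any list lay in the gene or within 2 kb of it for 19 of the 84 (22.6%), against 28.8% of all genes. The 5 strongest ZAD-like promoter peaks were those of CG10147, CG1792, CG18476, CG4820 and M1BP in the pooled signal. All 5 are members, and the members were chosen with these signals already known, so this is only a description. Outside the members the highest signals were at pad (500.9, rank 594), prg (418.9, rank 852), CG14711 and Zaf1 (1 shared peak, 396.7, rank 948) and CG4707 (367.1, rank 1083). The median of the 21 was 295.3, with a range of 151.7 to 500.9, and some of the 21 genes shared a peak. The highest, pad, lay just below M1BP. The lowest (151.7) lay between the peak at the inner pita TSS (158.6), which is nearer to the Dcp-1 TSS, and that at the upstream pita TSS (148.7). The rest lay between M1BP and the inner pita peak. In replicate 2, pad ranked 717, above M1BP at 779 and CG4820 at 791, and in replicate 3 it ranked 558, below both, so the order of these 3 genes was not the same in the replicates.

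**Figure D4:**
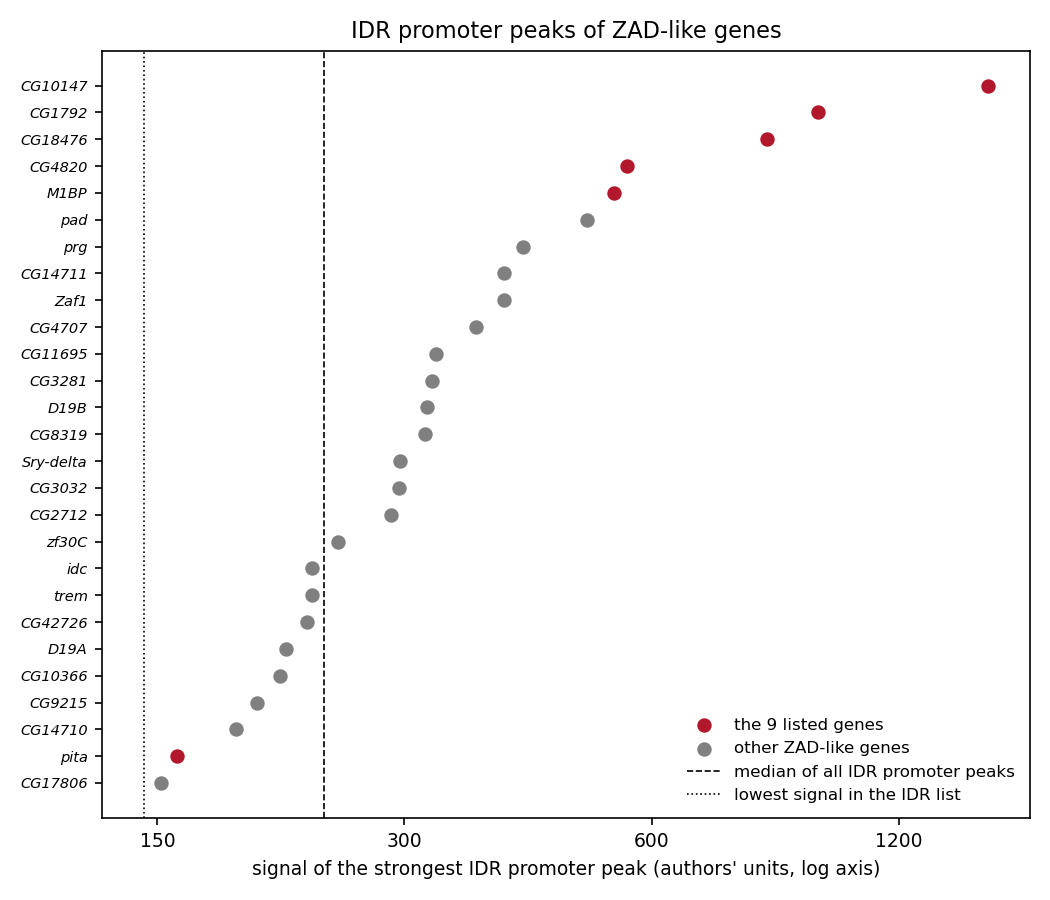
Signal (authors' units, log axis) of the strongest IDR promoter peak of each of the 27 ZAD-like genes that had one; red points are members and grey points other ZAD-like genes, the dashed line is the median of all IDR promoter peaks (239.7) and the dotted line the lowest IDR signal (144.6). The 5 highest points are members, from CG10147 at 1540 to M1BP at 540.0, and pita at 158.6 is among the lowest.

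M1BP and ZIPIC lie among other ZAD genes, and their neighbours are set beside them here. The gap between M1BP and ranshi is 96 bp, and CG8159, ouib and nom follow within 10 kb; none of these 4 had a promoter summit in any list, so the peak at M1BP stood on the outer side of the cluster, in the gap with CG8202. ZIPIC is 2848 bp from Sry-beta and 6470 bp from Sry-delta, and only Sry-delta had a promoter peak (signal 296.2). These neighbours were named after their values were seen.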

How the data were processed

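ChIP-seq peaks of 2 biological replicates (CG10147-GFP embryos) were analysed from 4 lists: 1 per replicate, 1 on the pooled libraries and 1 thresholded by IDR. Per the labels and the deposited file lists, peaks were called on dm6 with a control, and fragments were 200 to 800 bp; the sources used here name neither the aligner nor the peak caller. The deposited signal of each peak is the authors' value and was used to rank peaks within a list. The deposited −log10 q-value stops at a maximum within each list (4.13 in the pooled one) and was not used for ranking. The 4576 IDR peaks were the 4576 strongest of the 30000 pooled peaks, so an IDR peak need not be a peak in each replicate. Read depth is unknown, and no interval was made for a signal.

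Genes came from the Ensembl 115 copy of FlyBase 6.54 and sequence from RefSeq Release 6; no peak ended past its arm. Pita was matched to the symbol pita. A promoter summit lay within 500 bp of an annotated TSS, and replicate summits were matched within 100 bp. Proteins were translated from the longest coding sequence (Biopython 1.88, Python 3.11.15), and starts were aligned with BLOSUM62. The cysteine pairs were 30 to 60 residues apart. Peak assignment and the protein patterns were tested on simulated data. The simulated proteins without a ZAD-like start held no cysteine before their fingers, so false matches to the cysteine pattern could not have been seen. Members, lists and motifs were chosen with earlier results of these data known, so no test was made. Named genes were the members, genes at their peaks, and ZAD-like genes among the 10 strongest. Alternatives were other TSS windows and flanks, each replicate alone, stronger peaks and a list of symbols.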

Additional observations from a re-analysis of the deposited data

How the results depend on the processing

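The count of 6 members with an IDR promoter peak was 5 or 6 under all 6 alternatives: 5 with a promoter of 200 bp, where M1BP drops out because its summit is 309 bp from its TSS, 5 in the stronger 2288 peaks of the list, where pita drops out, and 6 with the strongest peaks of either replicate alone. The counts in the pooled list and in both replicate lists were 5 with a promoter of 200 bp and 6 otherwise. The 9 IDR summits in the windows became 8 with flanks of 1000 bp and 12 with flanks of 5000 bp. The 27 wider ZAD-like genes were 20 to 29 with other windows, lists or replicates, but a list of 27 ZAD genes by symbol held 11. That list has fewer genes than the 93 of the protein pattern, and its share was 40.7% against 29.0%; it includes all 9 members, and without them it was 5 of 18 (27.8%). The pita summit 40 bp upstream of its TSS (-40 bp, also in replicate 3) lay 37 bp downstream in replicate 2; the cause was not tested. With 2 replicates of 1 group, unknown depth and signals that have no replicate error, small differences in rank cannot be read as differences in binding.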

Other observations

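Among the 5 printed promoters, the longest run of bases shared by any 2, on either strand, was between CG10147 and CG18476, and it lay beside the summit in both. The run, AAAAATATAAAT (on 3L and 3R), spans bases 80 to 91 of the CG10147 sequence, whose pooled summit is base 75, and, on the other strand, bases 109 to 120 of the CG18476 sequence, whose summit is base 125. It was in 12 of 4576 IDR summit windows, and in a similar share, 32 of 13945, of the windows upstream of protein-coding genes. The peaks of CG10147 and CG18476, from which it was defined, were chosen with their signals known. Of the other 10 peaks, 4 (40%) were among the strongest 500 of all 4576. For scale, 10.7% of all IDR peaks rank 490 or stronger, and a count among 10 peaks is small. Of the same 10, 6 (60%) were among the stronger 2288 of all 4576, which is near the share of all peaks. It includes AAAATAT and TATAAA, and it was singled out after the sequences had been read, so it was not tested.

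GGTATTTT, also picked after reading, was in the 200 bp upstream of CG10147, CG18476 and CG4820, 3 of 9 members against 4.02% of protein-coding genes, but in only 1 of 7 member summit windows (CG4820), against 2.82% of IDR windows.

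The 93 ZAD-like genes were unevenly placed: 43 were on 3R, which has 3421 of the 13945 protein-coding genes, and 15 of those 43 (34.9%) had an IDR promoter peak, against 21.2% of the protein-coding genes of 3R. Without the members, which were chosen with their signals known, 11 of 38 did (28.9%). On the other arms, members included, 3 of 11 ZAD-like genes had an IDR promoter peak on 2L, 2 of 14 on 2R, 3 of 10 on 3L and 4 of 15 on X. Over all 6 arms the share of protein-coding genes was 20.3%. The share of all genes by arm was taken for 3R only, so these counts do not compare the arms.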
